A study of Mus musculus with 8 samples.

Results

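The 10 genes described here carry out the uptake of arginine, its use for nitric oxide, its breakdown by arginase and the making of polyamines. They are Slc7a1 and Slc7a2, Nos2, Gch1, Ass1 and Asl, Arg1 and Arg2, and Odc1 and Sat1. They were chosen by name, as the gene probes whose RefSeq accession belongs to 1 of the 10 genes, and the brightest probe over all arrays was used for each gene. They are 10 of 37020 genes and transcripts on the array, and all 10 passed the minimum mean log2 intensity of 6.

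The arrays compared RNA of cultured peritoneal macrophages from KO mice, LysMCre-fur fl/fl, with that from WT littermates, both on the C57BL/6 background. LPS, a cell wall component of Gram-negative bacteria, was given at 1 μg/ml for 1, 4 or 24 h, and cells without LPS served as the 0 h time point. At each of the 4 time points there were 2 arrays, replicates 1 and 2, and on each array KO and WT RNA were hybridised together in different dyes, which gave 16 RNA samples on 8 arrays. The ages of the mice used for the arrays, and whether mice were pooled, are not given in the sources used here. In the KO, Cre is driven from the Lyz2 (lysozyme M) locus, so floxed Furin is deleted in cells that express that gene. All groups share the culture of the peritoneal cells for 24 h and the removal of nonadherent cells before stimulation. The growth protocol in the labels names 4 h of stimulation for every sample, while the titles give the times used here.

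Macrophages take up arginine through the cationic amino acid transporters encoded by Slc7a1 (CAT1) and Slc7a2 (CAT2). Inducible nitric oxide synthase, the product of Nos2, turns arginine into nitric oxide and citrulline and needs tetrahydrobiopterin, whose synthesis starts with GTP cyclohydrolase (Gch1), while argininosuccinate synthase (Ass1) and lyase (Asl) rebuild arginine from the citrulline. The arginases Arg1 (cytosolic) and Arg2 (mitochondrial) compete for the same arginine and give urea and ornithine, which ornithine decarboxylase (Odc1) turns into the polyamine putrescine, and spermidine/spermine acetyltransferase (Sat1) marks polyamines for breakdown or export.

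All 160 values of the 10 genes in the 16 samples were well above the local background, none was saturated, and they lay between 7.75 and 16.36 on the log2 scale of normalized intensity. Furin, the deleted gene, was lower in KO than in WT RNA on the 6 arrays at 0, 1 and 24 h, with log2 KO/WT ratios from -0.85 to -0.55, but not at 4 h, where the ratios were 0.00023 and 0.33. The RNA labelled KO at 4 h therefore did not show the loss of Furin, and every value given for KO at 4 h below, in the LPS comparisons too, is one of the RNA labelled KO. The study reported a nearly complete loss of Furin mRNA in KO macrophages, a larger loss than these ratios show. The position of the Furin probe relative to the deleted part is not given in the sources used here. Lyz2, the gene that carries Cre, was lower on all 8 arrays, with ratios from -1.85 to -0.74. Of 7 measured macrophage markers, 7 were well above background in every sample, and so were 6 of 6 B cell, 6 of 6 mast cell and 5 of 7 T and NK cell markers (not Klrb1c and Ncr1). Of 5 measured neutrophil markers, S100a8 and Elane were above background, and S100a9, Mpo and Ngp were not in any sample.

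LPS changed most of the 10 genes in both genotypes. A gene was called when its adjusted p in limma (Benjamini-Hochberg over 36929 genes and transcripts) was under 0.05. After 1 h, 3 of the 10 were higher and 0 lower in WT cells, where 3.36% of all genes and transcripts were called higher and 5.17% lower. The counts were 3 and 0 in KO cells too (3.09% and 4.46% of all), and the genes were Slc7a2, Gch1 and Odc1 in both genotypes. After 4 h, 6 were higher and 2 lower in WT (15.5% and 19.2% of all), and 7 were higher and 2 lower in the RNA labelled KO (16.3% and 19.7% of all). After 24 h, 6 were higher and 1 lower in WT (13.5% and 16.9% of all), and 5 were higher and 1 lower in KO (12.8% and 15.9% of all). From 4 to 24 h, 3 rose and 3 fell in WT (15.1% and 14.6% of all), and 2 rose and 6 fell in KO (15.7% and 15.1% of all). The comparisons with unstimulated cells share those samples within a genotype, and each group holds 2 samples, which limits the precision of every value below.

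**Figure D1:**
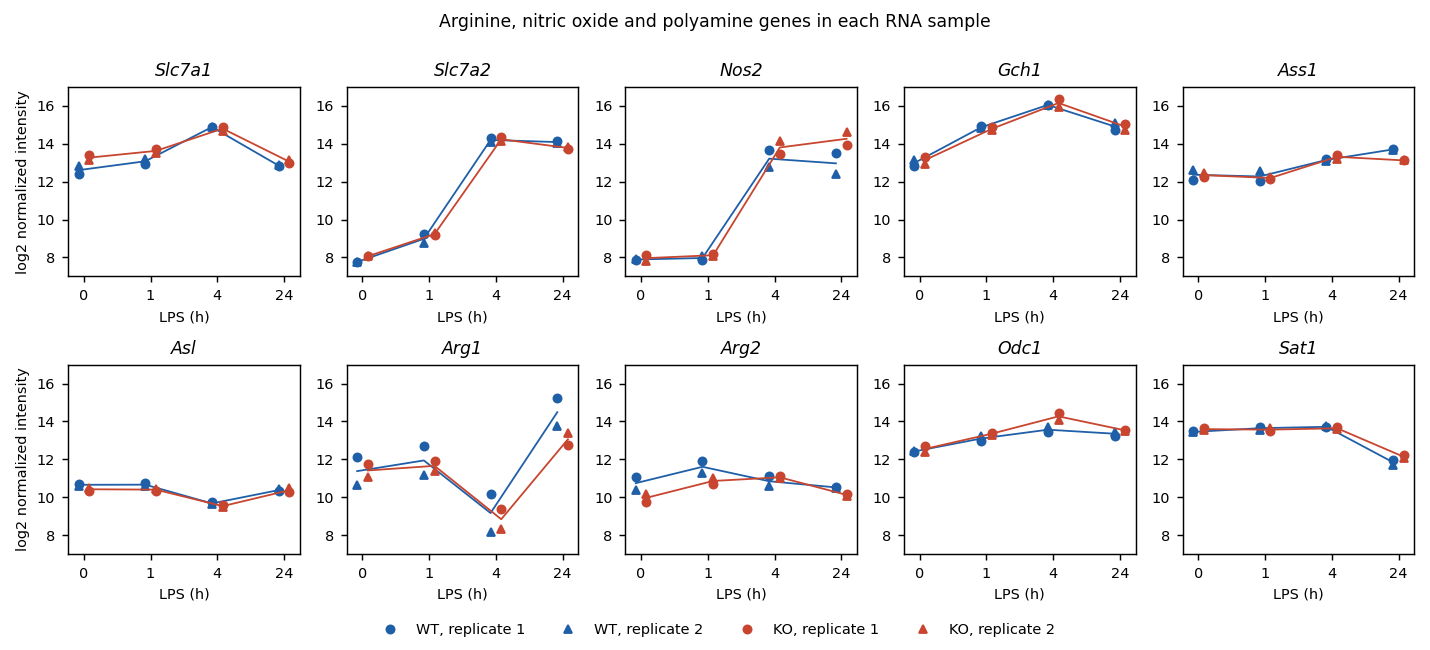
Log2 normalized intensity (vertical axis) of each gene in the 16 RNA samples by hours of LPS (horizontal axis, not to scale), with circles for replicate 1, triangles for replicate 2, WT in blue, KO in red and lines through the means of 2 samples. Slc7a2 and Nos2 rose from near 8 to above 12, Slc7a1 and Gch1 were highest at 4 h, Arg1 was lowest at 4 h and highest at 24 h, and Sat1 was lower at 24 h than at the other times.

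Markers of the cells in the culture moved with LPS as well. The summed intensity of the 7 macrophage markers, Lyz2 among them, was 533147 to 642791 in unstimulated WT and 252440 to 270133 at 24 h, and 449565 to 453474 and 160870.3 to 180562 in KO. The summed intensity of 6 large peritoneal macrophage markers (Gata6, Timd4 and others, 6 of 6 above background in every sample) was 55041 to 59747 in unstimulated WT, 30782 to 32272 at 4 h and 16268 to 18372 at 24 h. In KO it was 66777 to 76124, 32970 to 43521 and 15593 to 16018. The large peritoneal macrophage markers thus fell in both genotypes. The 6 B cell markers summed to 65161 to 85034 in unstimulated WT and 36381 to 43628 at 4 h, and to 73021 to 105861 and 27932 to 42337 in KO. The 5 neutrophil markers summed to 3509 to 4424 in the unstimulated samples and to 22713 to 65131 at 24 h. S100a9, Mpo and Ngp were not above background, so the rise of the sum rested on S100a8, Elane or both. The mean log2 intensity of the 5 was 8.02 to 8.14 without LPS and 8.62 to 8.88 at 24 h. The 6 mast cell markers went from 8152 to 14861 in the unstimulated samples to 1839 to 3887 at 24 h, and the 7 T and NK cell markers from 11083 to 19672 to 6050.4 to 9625 at 4 h. The 8 mesothelial and fibroblast markers, 3 to 7 of them above background, summed to 979.5 to 1195 in the unstimulated samples and 2267 to 2922 at 24 h. The part of these shifts in the values of the 10 genes was not tested. In bulk RNA a change in the number of cells of a type and a change in RNA per cell cannot be told apart.

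Of the genes with an entry in the RefSeq promoter table (GRCm38.p6), Slc7a1, Gch1, Ass1 and Odc1 are shown, since they rose at 4 h in both genotypes. Sat1 and a second, downstream start of Slc7a1 have an entry too and are not printed, and Nos2, Arg1, Arg2, Asl and Slc7a2 are named only. The 250 bases before the start site are given 5′ to 3′ on the strand of the gene, at chr5:148399905-148400154 (minus strand) for Slc7a1, chr14:47189414-47189663 (minus strand) for Gch1, chr2:31470020-31470269 (plus strand) for Ass1 and chr12:17544623-17544872 (plus strand) for Odc1. Capitals mark matches on either strand to 4 motifs, the AP-1 type, the E-box, the TATA box and the NF-kB consensus, and no matches to different motifs overlapped.
Slc7a1: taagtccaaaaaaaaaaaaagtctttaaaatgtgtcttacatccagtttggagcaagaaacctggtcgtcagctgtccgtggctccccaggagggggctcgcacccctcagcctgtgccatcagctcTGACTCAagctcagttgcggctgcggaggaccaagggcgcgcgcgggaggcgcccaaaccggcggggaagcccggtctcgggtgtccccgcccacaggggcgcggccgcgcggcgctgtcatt
Gch1: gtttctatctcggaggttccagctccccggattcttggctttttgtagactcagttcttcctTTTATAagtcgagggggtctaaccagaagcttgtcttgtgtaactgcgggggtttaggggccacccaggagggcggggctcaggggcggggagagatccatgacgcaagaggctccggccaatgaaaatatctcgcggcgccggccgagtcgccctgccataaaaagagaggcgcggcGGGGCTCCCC
Ass1: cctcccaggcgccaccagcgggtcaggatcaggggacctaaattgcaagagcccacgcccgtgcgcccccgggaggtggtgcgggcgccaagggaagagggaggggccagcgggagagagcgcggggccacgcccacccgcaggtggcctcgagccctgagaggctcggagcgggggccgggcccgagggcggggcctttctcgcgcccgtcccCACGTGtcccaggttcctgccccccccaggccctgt
Odc1: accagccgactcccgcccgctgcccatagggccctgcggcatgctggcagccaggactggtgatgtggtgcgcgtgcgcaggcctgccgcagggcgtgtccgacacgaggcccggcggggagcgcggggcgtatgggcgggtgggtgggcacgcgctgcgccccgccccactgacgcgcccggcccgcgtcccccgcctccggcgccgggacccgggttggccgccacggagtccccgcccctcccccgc
The AP-1 type motif, TGANTCA, occurred in 6.7% of all 32851 windows of this length and, of the windows shown, in that of Slc7a1. The E-box, searched as CACGTG, occurred in 6.0% of all and in that of Ass1. The window of Gch1 held the TATA box letters, TATAAA, on the opposite strand at -188 to -183 from the start site. These letters were found in 12.4% of all windows. Next to the start site the Gch1 window held a match to the NF-kB consensus, found in 7.3% of all. The windows of Odc1 and Sat1 held no match to the 4 motifs. The second window of Slc7a1 held TATAAA on the strand of the gene at -28 to -23. The motifs were settled after matches to a broader NF-kB pattern and to STAT and interferon-response motifs had been seen in these windows, and those searches are not reported here. A match describes the letters and not a bound site.

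Both arginine transporters rose with LPS, and the log2 rise at 4 h was 6.44 for Slc7a2 and 2.28 for Slc7a1 in WT. In WT cells the log2 intensity of Slc7a2 was 7.78 and 7.75 without LPS, 9.22 and 8.75 after 1 h, 14.30 and 14.11 after 4 h, and 14.16 and 14.02 after 24 h. In KO cells it was 8.06 and 8.06, 9.19 and 9.28, 14.34 and 14.14, and 13.71 and 13.85. No stimulated sample overlapped the unstimulated ones, and the intensity at 24 h stayed within 1 log2 unit of that at 4 h. The rise in WT was 2.33-fold at 1 h (log2 1.22, SE 0.14, adjusted p = 6.62e-05), 86.9-fold at 4 h (adjusted p = 1.84e-12) and 80.4-fold at 24 h (adjusted p = 4.83e-12). In KO it was 2.25-fold, 72.3-fold and 52.7-fold, all called. Slc7a2 was lower at 24 h than at 4 h in KO (log2 -0.46, adjusted p = 0.0233), but the adjusted p was 0.171, 0.161 and 0.0546 without replicate 1 at 4 h, replicate 1 at 24 h and replicate 2 at 24 h, and the difference was -0.13 (adjusted p = 0.706) with loess normalization alone.

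Slc7a1, the transporter gene that most cell types express, was highest at 4 h and was not called at 24 h (log2 difference 0.24 in WT and -0.21 in KO). In WT cells its log2 intensity was 12.38 and 12.84 without LPS, 12.93 and 13.23 after 1 h, 14.90 and 14.87 after 4 h, and 12.83 and 12.88 after 24 h. In KO cells it was 13.40 and 13.14, 13.75 and 13.50, 14.91 and 14.70, and 12.98 and 13.13. The samples at 4 h stood above all others of their genotype, and the WT samples at 24 h overlapped the unstimulated ones. The rise at 4 h was 4.84-fold in WT (log2 2.28, SE 0.16, adjusted p = 6.93e-08) and 2.90-fold in KO (log2 1.53, adjusted p = 3.4e-06). From 4 to 24 h it fell by 2.03 in WT and by 1.75 in KO on the log2 scale. At 1 h the WT difference of 0.47 had an adjusted p of 0.108, which was 0.0404 with the replicate number as a block (4.63% of all called higher there) and 0.0274 without unstimulated replicate 2 (log2 0.70). It was 0.24 (adjusted p = 0.589) without unstimulated replicate 1.

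The gene for inducible nitric oxide synthase was not called at 1 h (log2 difference 0.08 in WT and 0.15 in KO) and was far higher at 4 and 24 h. The log2 intensity of Nos2 in WT cells was 7.86 and 7.93 without LPS, 7.86 and 8.08 after 1 h, 13.66 and 12.78 after 4 h, and 13.52 and 12.42 after 24 h. In KO cells it was 8.11 and 7.82, 8.17 and 8.06, 13.45 and 14.16, and 13.92 and 14.61. The samples at 1 h overlapped the unstimulated ones in both genotypes, and those at 4 and 24 h lay above them by more than 4 log2 units. The rise at 4 h was 40.1-fold in WT (log2 5.33, SE 0.37, adjusted p = 5.77e-08) and 57.5-fold in KO (log2 5.85, adjusted p = 2.41e-08). At 24 h it was 33.8-fold in WT and 79.0-fold in KO, and neither genotype was called between 4 and 24 h (log2 -0.25 in WT and 0.46 in KO).

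Gch1, which supplies the synthase with its cofactor, was among the genes already higher at 1 h. Its log2 intensity in WT was 12.83 and 13.15 without LPS, 14.93 and 14.82 after 1 h, 16.07 and 16.04 after 4 h, and 14.73 and 15.11 after 24 h. In KO it was 13.33 and 12.96, 14.88 and 14.71, 16.36 and 15.95, and 15.07 and 14.75. Every stimulated sample lay above every unstimulated one, and every 4 h sample above those at 1 and 24 h. The rise in WT was 3.69-fold at 1 h (log2 1.88, SE 0.19, adjusted p = 1.6e-05), 8.36-fold at 4 h and 3.81-fold at 24 h, and in KO 3.13-fold, 8.06-fold and 3.40-fold, all called. The fall from 4 to 24 h was called in both (log2 -1.13 and -1.24). A dimmer second Gch1 probe moved the same way with smaller values, 1.11, 1.89 and 0.37 in WT and 1.08, 2.07 and 0.50 in KO.

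The citrulline recycling genes moved apart, Ass1 up and Asl down. Ass1 in WT was at 12.10 and 12.64 without LPS, 12.01 and 12.54 after 1 h, 13.19 and 13.11 after 4 h, and 13.72 and 13.70 after 24 h, and in KO at 12.22 and 12.47, 12.15 and 12.24, 13.43 and 13.20, and 13.13 and 13.12. The samples at 4 and 24 h lay above the unstimulated ones in both genotypes. The rise at 4 h was 1.72-fold in WT (log2 0.78, SE 0.18, adjusted p = 0.00297) and 1.96-fold in KO (log2 0.97, adjusted p = 0.000542), although without unstimulated replicate 1 the WT value was 0.51 with an adjusted p of 0.0578. At 24 h it was 2.53-fold in WT (adjusted p = 4.38e-05) and 1.72-fold in KO (adjusted p = 0.00384). The further rise from 4 to 24 h in WT (log2 0.56, adjusted p = 0.0288) was no longer called without replicate 1 or 2 at 4 h (adjusted p = 0.0805 and 0.128), without replicate 1 or 2 at 24 h (0.129 and 0.120) or with the mean of both Ass1 probes (0.0623), and in KO the difference was -0.19 (adjusted p = 0.516).

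Asl was the member of this branch that fell. Its log2 intensity in WT was 10.72 and 10.59 without LPS, 10.74 and 10.59 after 1 h, 9.72 and 9.62 after 4 h, and 10.31 and 10.44 after 24 h. In KO cells the values were 10.33 and 10.51, 10.35 and 10.45, 9.60 and 9.46, and 10.28 and 10.46. The 4 h samples were the lowest in both genotypes, with no overlap with any other time. The fall at 4 h was -0.98 in WT (SE 0.11, adjusted p = 6.64e-06) and -0.89 in KO (adjusted p = 1.75e-05) on the log2 scale, and the rise from 4 to 24 h was 0.70 and 0.84. At 24 h the difference from unstimulated cells was -0.28 in WT (adjusted p = 0.0793, and 0.0450 with a minimum mean log2 intensity of 8) and -0.05 in KO.

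Arg1 fell at 4 h and was far higher at 24 h, and in the LPS comparisons its SE was the largest of the 10 genes. Its log2 intensity in WT was 12.11 and 10.64 without LPS, 12.73 and 11.16 after 1 h, 10.17 and 8.16 after 4 h, and 15.23 and 13.75 after 24 h. In KO it was 11.73 and 11.09, 11.92 and 11.40, 9.37 and 8.30, and 12.74 and 13.38. The 4 h samples lay below and the 24 h samples above the unstimulated ones in both genotypes, while replicate 1 was above replicate 2 in every group except the KO at 24 h. The fall at 4 h was -2.21 in WT (SE 0.70, adjusted p = 0.0230) and -2.58 in KO (adjusted p = 0.00914). In WT it was -1.48 (adjusted p = 0.244) without unstimulated replicate 1 and -1.20 (adjusted p = 0.280) without replicate 2 at 4 h, and in KO the adjusted p was 0.0629 and 0.0524 without the same arrays. Within replicates 1 and 2 the fall was -1.95 and -2.48 in WT and -2.36 and -2.79 in KO (adjusted p = 1.38e-05 and 3.27e-06 with the replicate block).

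The late rise of Arg1 at 24 h was 8.64-fold in WT (log2 3.11, SE 0.70, adjusted p = 0.00315). It was 2.39 (adjusted p = 0.0597) on the log2 scale without unstimulated replicate 2 and 2.37 (adjusted p = 0.0568) without replicate 1 at 24 h, while within replicates 1 and 2 it was 3.11 and 3.11 (adjusted p = 7.43e-07 with the block). In KO the difference was 1.65 with an adjusted p of 0.102, and it was called with the replicate number as a block (adjusted p = 0.000280) and with loess normalization alone (1.87, adjusted p = 0.0426). From 4 to 24 h Arg1 rose 40.1-fold in WT (log2 5.32, adjusted p = 4.03e-05) and 18.7-fold in KO (log2 4.22, adjusted p = 0.000289). The WT value was 6.29 and 4.29 on the log2 scale without replicate 1 and 2 at 4 h, and 4.57 and 6.05 without replicate 1 and 2 at 24 h. Within the replicates it was 5.06 and 5.59.

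Arg2, the mitochondrial arginase, had its highest WT samples at 1 h. Its log2 intensity in WT was 11.08 and 10.41 without LPS, 11.92 and 11.29 after 1 h, 11.11 and 10.58 after 4 h, and 10.53 and 10.50 after 24 h. The KO samples were at 9.75 and 10.20, 10.69 and 11.03, 11.10 and 11.01, and 10.16 and 10.09. The 1 h samples lay above the unstimulated ones in both genotypes, and at 4 h the samples overlapped in WT and did not in KO. At 1 h the difference was 0.86 in WT (SE 0.26, adjusted p = 0.0553) and 0.89 in KO (adjusted p = 0.0524), and both were called with the replicate block (adjusted p = 0.00482 and 0.00451). The WT value was 0.53 (adjusted p = 0.371) without unstimulated replicate 2, 0.55 (0.363) without replicate 1 at 1 h, 1.21 (0.0204) without unstimulated replicate 1 and 1.18 (0.0284) without replicate 2 at 1 h. The KO value was called without unstimulated replicate 2 (1.12, adjusted p = 0.0296). At 4 h the difference in the RNA labelled KO, without loss of Furin, was 1.08 (adjusted p = 0.00377), or 0.68 with an adjusted p of 0.0814 with loess normalization alone, and the WT difference was 0.10 (adjusted p = 0.834). The KO fell from 4 to 24 h by 0.93 (adjusted p = 0.0124), with an adjusted p of 0.0596, 0.0611 and 0.0857 without replicate 1 at 4 h, replicate 1 at 24 h and replicate 2 at 24 h and of 0.323 with loess normalization alone.

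The polyamine genes moved in opposite directions at 24 h. Odc1, the entry to polyamine synthesis, was at 12.38 and 12.46 in unstimulated WT, 12.95 and 13.25 after 1 h, 13.43 and 13.71 after 4 h, and 13.24 and 13.46 after 24 h, and in KO at 12.69 and 12.41, 13.40 and 13.31, 14.47 and 14.07, and 13.55 and 13.52. Every stimulated sample lay above both unstimulated ones of its genotype. The rise at 4 h was 2.21-fold in WT (log2 1.15, SE 0.16, adjusted p = 4.75e-05) and 3.29-fold in the RNA labelled KO (log2 1.72, adjusted p = 9.85e-07), and at 24 h it was 1.91-fold and 1.97-fold, both called. The log2 rise at 4 h on the other 2 Odc1 probes, which were dimmer, was larger, at 1.69 on both in WT and 2.09 and 2.35 in the RNA labelled KO. At 1 h the log2 difference was 0.68 in WT (adjusted p = 0.0155) and 0.80 in KO (adjusted p = 0.00625). The 1 h call was lost in WT without unstimulated replicate 1 or 2 (adjusted p = 0.109 and 0.0587) or replicate 2 at 1 h (0.192), and in KO without unstimulated replicate 2 (0.0831) or replicate 1 at 1 h (0.0506). The fall of Odc1 from 4 to 24 h in KO was -0.74 (adjusted p = 0.00243), or -0.42 with an adjusted p of 0.0768 with loess normalization alone.

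Sat1, on the breakdown side, changed late. Its log2 intensity in WT was 13.47 and 13.42 without LPS, 13.73 and 13.56 after 1 h, 13.69 and 13.75 after 4 h, and 11.96 and 11.72 after 24 h. In KO cells the values were 13.66 and 13.53, 13.51 and 13.64, 13.69 and 13.59, and 12.21 and 12.05. Only the 24 h samples stood apart in both genotypes, below all others. The fall at 24 h was -1.61 in WT (SE 0.11, adjusted p = 8.58e-08) and -1.46 in KO (adjusted p = 2.24e-07), a 3.04-fold and a 2.76-fold decrease. At 4 h the WT difference was 0.27 with an adjusted p of 0.0776, which was 0.0290 with the software's processed signals and 0.0464 with a minimum mean log2 intensity of 8.

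KO and WT RNA were compared within each array, as the log2 KO/WT ratio. In limma, 0 of the 10 genes were called at 0 h (0% of all genes and transcripts), at 1 h (0%), at 4 h (0.00812%), at 24 h (0.0244%) or in the mean over the 4 time points (0.563%). Without adjustment, 2, 3, 1, 4 and 5 of the 10 had p under 0.05, where 5.75%, 5.46%, 4.31%, 3.41% and 10.6% of all did, and the methods' t-test after Benjamini-Hochberg called 0 (0%) of all genes and transcripts at each time point. Samples of the same replicate number deviated together, and with the replicate number as a block the counts were 1 (Slc7a1) at 0 h, 0 at 1 h, 1 (Odc1) at 4 h, 2 (Arg1 and Ass1) at 24 h and 4 (Arg1, Arg2, Slc7a1 and Odc1) in the mean, against 1.06%, 0.577%, 0.569%, 0.585% and 6.01% of all. KO was in Cy5 on every replicate 1 array and in Cy3 on every replicate 2 array, so replicate and dye cannot be told apart. For the ratios the block takes out the mean difference between replicates 1 and 2. Its p-values therefore do not measure whether the replicates had the same KO to WT difference. The mean ratio of Arg1 over the time points was -0.50 (SE 0.23, adjusted p = 0.508, and 0.00837 with the block), but it was -1.12 on replicate 1 and 0.12 on replicate 2 and ran from -0.77 to -0.24 when 1 array was left out.

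**Figure D2:**
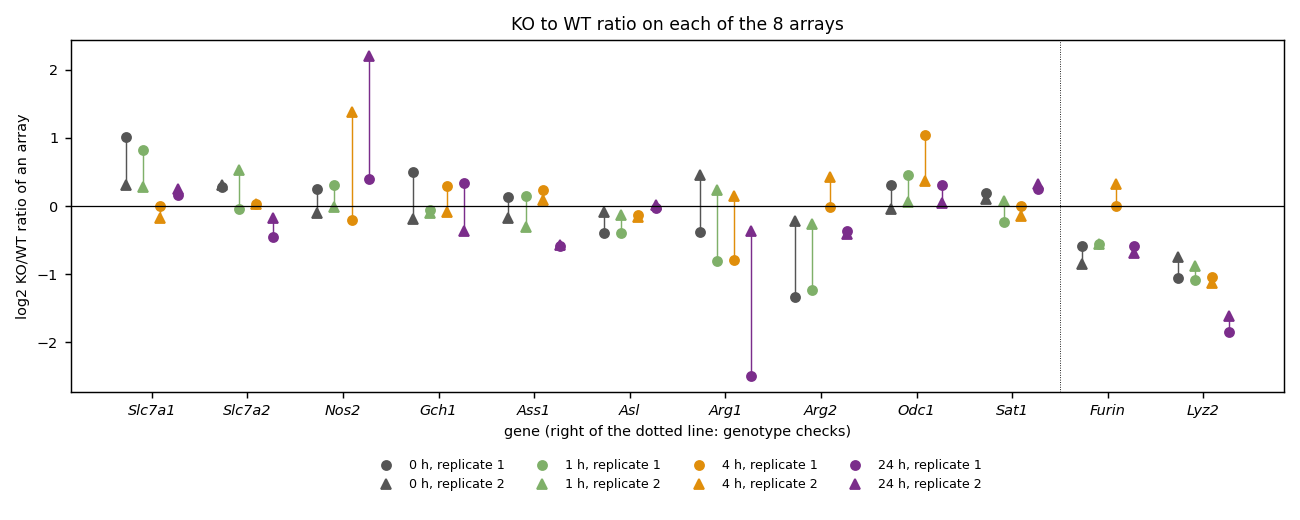
Log2 KO/WT ratio (vertical axis) on each of the 8 arrays for the 10 genes and, right of the dotted line, Furin and Lyz2, with colours for the hours of LPS, circles for replicate 1 and triangles for replicate 2 joined by a line. At 24 h Arg1 was at -2.49 and -0.37 and Nos2 at 0.40 and 2.20, so that the size rested on different arrays, while the ratios of Ass1 at 24 h were -0.59 and -0.58.

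At 24 h the ratios of Nos2 were 0.40 and 2.20 and those of Arg1 -2.49 and -0.37, so Nos2 was higher and Arg1 lower in KO on both arrays. The study showed both genes for the size of the difference in LPS response between WT and KO on these arrays, so their KO to WT values and differences of response are not independent of that choice. The study also reported Nos2 higher and Arg1 lower in KO macrophages by qRT-PCR. The stimuli there were LPS with IFN-γ for Nos2 and IL-4 for Arg1. On the 24 h arrays the KO and WT samples did not overlap for either gene. The mean ratio of Nos2 was 1.30 (SE 0.43, unadjusted p = 0.0148, adjusted p = 1.00, and 0.156 with the block). The mean ratio of Arg1 was -1.43 (SE 0.46, unadjusted p = 0.0139, adjusted p = 1.00, and 0.00567 with the block). At 0 and 1 h the replicates of Nos2 (0.25 and -0.10, then 0.31 and -0.02) and of Arg1 (-0.38 and 0.45, then -0.81 and 0.23) had opposite signs, and at 4 h they did too, with -0.21 and 1.39 for Nos2 and -0.80 and 0.14 for Arg1. The macrophage markers without Lyz2, 6 of 6 above background in every sample, summed at 24 h to 144427 to 161349 in KO and 183175 to 219885 in WT. The large peritoneal macrophage markers were lower in KO by their sum (15593 to 16018, against 16268 to 18372 in WT) but not by their mean log2 intensity (9.53 and 9.55 in KO, 9.52 in both WT samples). By their sums, other lists were higher in KO at 24 h without overlap. The sums were 3799.9 to 3887 against 1839 to 3189 for the mast cell markers. For the B cell markers they were 42467 to 48539.7 against 38729.9 to 40294. For the T and NK cell markers they were 10805 to 10919 against 9023 to 10209. For the mesothelial and fibroblast markers they were 2824 to 2922 against 2267 to 2380.3. By mean log2 intensity the T and NK cell markers overlapped (9.20 and 9.11 in KO, 8.85 and 9.12 in WT). Groups of 2 samples often lie apart without a difference, so these ranges describe the samples only. The neutrophil markers overlapped. The part of these lists in the 24 h ratios was not tested.

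The ratios of Arg2 were -1.33 and -0.21 without LPS, and after 1, 4 and 24 h they were -1.23 and -0.26, -0.01 and 0.42, and -0.37 and -0.42, so that 7 of 8 arrays lay below 0. The mean over the 4 time points was -0.43 (SE 0.14, adjusted p = 0.266, and 0.0118 with the block). The ratios of Slc7a1 were 1.01 and 0.31 without LPS, and after 1, 4 and 24 h they were 0.82 and 0.28, 0.01 and -0.17, and 0.16 and 0.25. The unstimulated value of Slc7a1 was 0.66 (SE 0.18, adjusted p = 0.412, and 0.0358 with the block) and its mean over the time points 0.33 (adjusted p = 0.169, and 0.0110 with the block). At 0 and 1 h the summed large peritoneal macrophage markers were higher in KO without overlap (66777 to 76124 against 55041 to 59747, and 58286 to 58498 against 44954 to 46570.4), and so were the B cell markers at 1 h (93417 to 102660.4 against 61751 to 82529.9), the mast cell markers at 1 h (10836 to 14109.5 against 10264 to 10368) and the mesothelial and fibroblast markers at 0 h (1009.99 to 1195 against 979.5 to 1009.2). Lower in KO by their sums without overlap were the neutrophil markers at 0 h (3509 to 4224 against 4302 to 4424). The neutrophil markers were lower at 1 h too (3493 to 3648 against 4383 to 4657). The macrophage markers without Lyz2 were lower at 1 h (330423 to 342822 against 347304 to 435561). By mean log2 intensity the neutrophil markers, 2 of 5 above background, overlapped at 0 h (8.09 and 8.02 in KO, 8.14 and 8.08 in WT). As at 24 h, groups of 2 samples often lie apart without a difference. The other lists overlapped, and the part of these markers in the ratios was not tested. In Arg2 and Slc7a1 the ratios of largest size were those of replicate 1 on the unstimulated and 1 h arrays, each over 2 times that of replicate 2.

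The ratios of Odc1 were 0.31 and -0.05 without LPS, and after 1, 4 and 24 h they were 0.45 and 0.06, 1.05 and 0.36, and 0.30 and 0.05, so that 7 of 8 arrays lay above 0. The 4 h value, of the RNA labelled KO, was 0.70 (SE 0.17, adjusted p = 0.588, and 0.0102 with the block), and the mean over the time points was 0.32 (adjusted p = 0.185, and 0.00344 with the block) or 0.19 without the 4 h arrays, a setting chosen after the data were seen. On the 4 h arrays the macrophage markers without Lyz2 (287759 to 338798 against 239350.5 to 285392) and the large peritoneal macrophage markers (32969.7 to 43521 against 30782 to 32272) were higher in the RNA labelled KO without overlap, and the mesothelial and fibroblast markers were lower (1000.5 to 1216 against 1263 to 1466). By mean log2 intensity the mesothelial and fibroblast markers overlapped (6.78 and 7.072 in the RNA labelled KO, 7.071 and 7.26 in WT). The part of these markers in the 4 h value was not tested. The ratios of Ass1 at 0, 1 and 4 h lay between -0.30 and 0.24. At 24 h they were -0.59 and -0.58, with a mean of -0.58 (SE 0.13, adjusted p = 0.371, and 0.0237 with the block), and its second probe gave a mean of -0.56. The ratios of Gch1 had opposite signs on the replicates at 0, 4 and 24 h, those of Asl lay between -0.39 and 0.02, those of Slc7a2 between -0.45 and 0.53, and those of Sat1 between -0.23 and 0.33.

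Whether the LPS response itself differed between KO and WT was tested as the change of the ratio from the unstimulated arrays. In limma 0 of the 10 genes were called at 1, 4 or 24 h (0% of all at each time), and 0, 3 and 2 had an unadjusted p under 0.05, where 1.4%, 2.9% and 3.33% of all did. The 3 at 4 h were Arg2 (0.98, SE 0.39), Slc7a1 (-0.74, SE 0.25) and Odc1 (0.57, SE 0.25), and the 2 at 24 h were Slc7a2 (-0.61, SE 0.19) and Ass1 (-0.56, SE 0.18), each with an adjusted p of 1.00. Leaving out 1 array, they ran from 0.42 to 1.55 for Arg2, -1.11 to -0.39 for Slc7a1, 0.23 to 0.91 for Odc1, -0.74 to -0.47 for Slc7a2 and -0.72 to -0.41 for Ass1. Both ratios after LPS lay on the other side of 0 from both unstimulated ones for 0 of the 10 genes at 1 h (7.24% of all), 1 (Sat1) at 4 h (8.37%) and 1 (Slc7a2) at 24 h (8.68%). The Arg1 response at 24 h differed by -1.46 (SE 0.66, adjusted p = 1.00, and 0.0543 with the block), with -2.11 on replicate 1 and -0.82 on replicate 2. The Nos2 response at 24 h differed by 1.22 (SE 0.60, adjusted p = 1.00), with 0.15 on replicate 1 and 2.30 on replicate 2. With the block 0 of the 30 tests passed (0%, 0.0352% and 0.211% of all at 1, 4 and 24 h), and the lowest adjusted p was that of Arg1 at 24 h.

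Of 50 further genes of the same pathways, listed by role, 48 were measured. After 4 h of LPS, 15 of the 48 were higher and 13 lower in WT (median log2 change -0.015), where 15.5% and 19.2% of all genes and transcripts were called, and 14 were higher and 13 lower in the RNA labelled KO (median -0.044, with 16.3% and 19.7% of all). At 24 h there were 14 higher and 13 lower in WT (13.5% and 16.9% of all), and 8 higher and 14 lower in KO (12.8% and 15.9% of all). Against the same shares of all at 4 h, the amino acid transport genes had 6 of 8 higher and 0 lower in both genotypes, the polyamine genes 8 higher and 6 lower of 16 in WT and 7 and 6 in KO, the urea cycle, ornithine and proline genes 1 higher and 2 lower of 11 in both, and the other nitric oxide and tetrahydrobiopterin genes 0 higher and 5 lower of 13 in both. The lists were chosen with results of these data known and were not tested as sets.

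**Figure D3:**
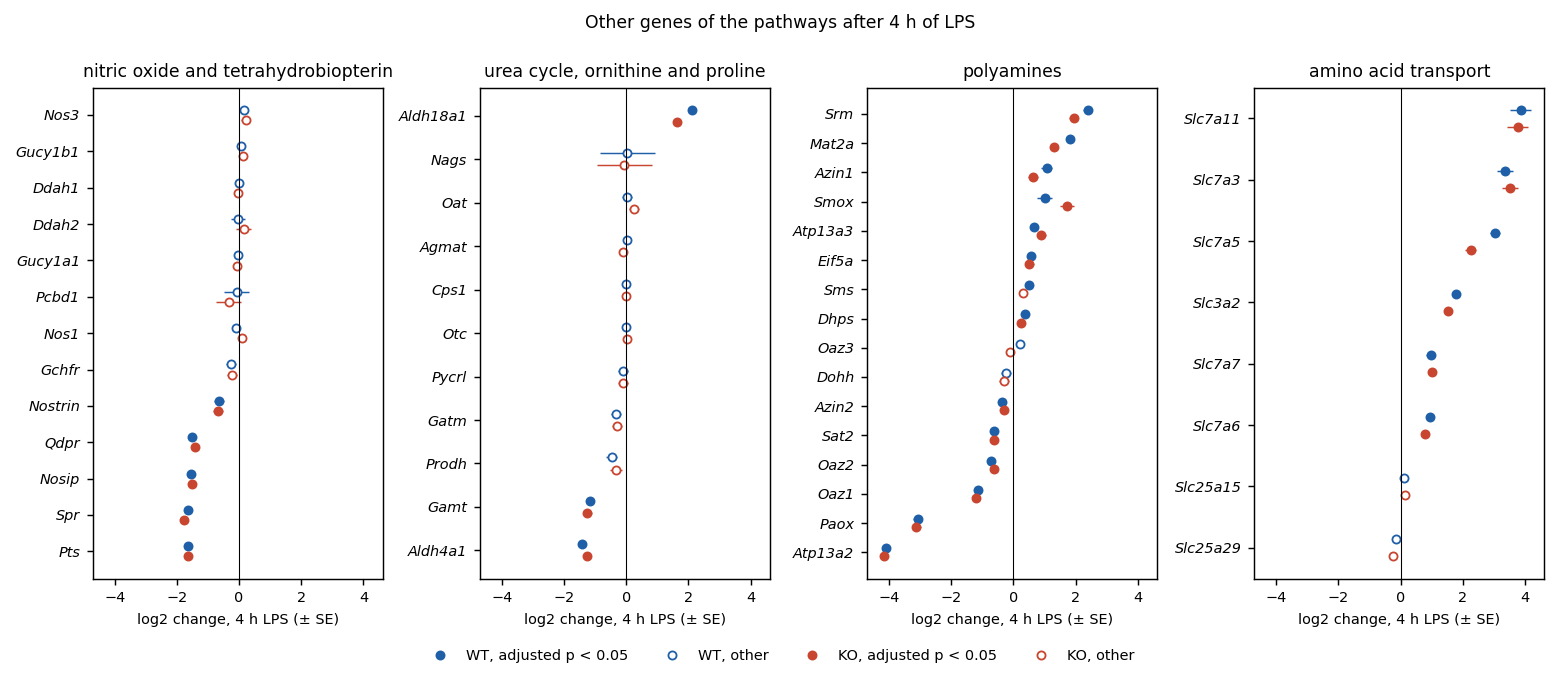
Log2 change after 4 h of LPS (horizontal axis, points with SE bars) of the 48 other pathway genes in 4 lists, WT in blue and KO in red, filled where the adjusted p was under 0.05. Slc7a11, Slc7a3 and Slc7a5 were the transport genes with the largest rises, and Atp13a2 and Paox fell by more than 3 log2 units in both genotypes.

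Among the transporters, the log2 change at 4 h in WT and KO was 3.86 and 3.76 for Slc7a11 (cystine/glutamate exchange), 3.36 and 3.50 for Slc7a3 (the cationic transporter CAT3) and 3.04 and 2.25 for Slc7a5 (large neutral amino acids). Slc3a2, the heavy chain that partners Slc7a5, Slc7a7 and Slc7a11, rose by 1.78 and 1.51, and Slc7a7 by 0.97 and 1.01. All of these were called, with SEs from 0.13 to 0.34. Slc7a11 was higher already at 1 h, by 2.12 and 1.72.

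On the polyamine side, spermidine synthase (Srm) rose by 2.39 and 1.93 at 4 h, Mat2a, which makes S-adenosylmethionine, by 1.81 and 1.30, and the antizyme inhibitor Azin1 by 1.06 and 0.63. The spermine oxidase Smox rose by 1.00 and 1.73. The transporter gene Atp13a3 rose by 0.66 and 0.89. In WT and KO the change was -1.13 and -1.21 for the antizyme Oaz1, -3.08 and -3.13 for the polyamine oxidase Paox, and -4.10 and -4.16 for the lysosomal polyamine exporter Atp13a2. Each of these was called in both genotypes, with SEs from 0.11 to 0.23. Paox and Atp13a2 were still lower at 24 h, at -1.94 and -1.92 for Paox and -2.89 and -2.56 for Atp13a2.

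The genes of 3 further tetrahydrobiopterin enzymes, Pts, Spr and Qdpr, fell at 4 h. The 4 h change in WT and KO was -1.65 and -1.63 for Pts, -1.63 and -1.77 for Spr, and -1.51 and -1.43 for the recycling enzyme Qdpr. It was -1.55 and -1.53 for Nosip, which encodes a protein that binds endothelial nitric oxide synthase. All 4 were called in both genotypes, with SEs from 0.08 to 0.12. Nos1 was not well above background in any sample, while Nos3 was in all 16 and was not called at 4 h.

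In ornithine and proline metabolism, Aldh18a1, which makes the precursor of proline and ornithine from glutamate, rose by 2.10 and 1.64 at 4 h. Aldh4a1, on the path of proline breakdown, changed by -1.41 and -1.28 at 4 h, and its values at 24 h were -0.01 and 0.02. The 24 h change was -1.78 and -1.61 for Prodh, which starts proline breakdown, and -2.22 in both genotypes for Gamt, the last enzyme of creatine synthesis. The values called as changes here had SEs from 0.12 to 0.19. Cps1 and Otc, of the liver urea cycle, were well above background in 0 and 2 of 16 samples.

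Between KO and WT, 0 of the 48 pathway genes were called at any time point, and 2 were called in the mean over the 4 time points, against 0.563% of all. They were Atp13a2 at -0.42 (SE 0.06, adjusted p = 0.0365) and Gamt at -0.30 (SE 0.05, adjusted p = 0.0472), and neither was called without any 1 of the 8 arrays (adjusted p from 0.0547 to 0.129 for Atp13a2 and from 0.0903 to 0.155 for Gamt). With the replicate block 2 were called at 0 h (Atp13a2 and Slc7a5, with 1.06% of all), 2 at 4 h (Atp13a2 and Smox, 0.569%) and 5 in the mean (6.01%), the others in the mean being Slc7a5 (0.46, adjusted p = 0.0125), Smox (0.34, adjusted p = 0.00686) and Pts (-0.16, adjusted p = 0.0461). The ratios of Smox at 4 h, in the RNA labelled KO, were 0.85 and 1.29 (mean 1.07, SE 0.15, adjusted p = 0.131, and 0.00412 with the block).

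The genes whose levels ran most like those of Nos2 over the 16 samples, among 9525 named genes whose mean log2 intensity reached 8, were Isg20 (Pearson r 0.992), Ifit3b (0.991), Ppa1 (0.991), Mlkl (0.989) and Dck (0.988). Those most like Arg1 were Atn1 (0.946), Tuba1a (0.939), Ddost (0.939), H2bc14 (0.939) and Elk3 (0.938). These samples share arrays in pairs and fall into 4 time points, so the values describe the time course and are given without a test. The genes most like Arg1 changed less from 0 to 24 h in WT, by 0.43 to 1.17 on the log2 scale, than Arg1 itself at 3.11.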

How the data were processed

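Peritoneal macrophage RNA of KO and WT mice was measured on 8 Agilent 2-colour arrays of 62976 spots. The deposited scanner files hold the raw intensity of each spot, the median over its pixels, as the authors extracted it with Agilent Feature Extraction 10.7.3. The authors also deposited normalized log2 ratios of Cy5 over Cy3, used here only as an alternative. The methods name loess and quantile normalization in limma. Of 55681 gene probes, 27509 were named through RefSeq accessions, for 20887 genes, and the others were kept under their own identifier. Gene positions are not given, since the builds of the array annotation and the reference table differ.

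Intensities were corrected by normexp (offset 50), normalized by loess within and by quantiles between arrays in limma 3.58.1 (R 4.3.3). Outlier spots (169 to 284 per array) were left out, spots of a probe were averaged, and 43.8% to 51.3% of gene spots were well above background. The median signal was used where the mean had been planned. KO/WT ratios were fitted with 1 coefficient per time point (4 residual degrees of freedom). LPS comparisons used limma's separate-channel analysis of 16 channels (statmod 1.5.0, within-spot correlation 0.101). All samples were assigned by their titles and dyes by the labels. The scripts were tested on simulated data.

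Same-numbered replicates deviated together between all 6 pairs of time points (correlation 0.475 to 0.679 over 36929 genes and transcripts). As the number is also the dye orientation, this may hold a dye effect. P-values measure the spread between arrays. With the block, those of the KO to WT ratios leave out the mean difference between replicates. The labels call the samples biological replicates.

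The 10 genes and the other lists were chosen with earlier results of these data known. Of the pathway genes, those past an adjusted p of 0.05 with a log2 change of at least 1 in an LPS comparison, or called between KO and WT, were open to naming. Named outside this rule, after their values were seen, were Nos3 and those given as not above background. Some genes of the pathway lists are not reported here. Alternatives were the normalization, the background correction, the software's processed signals, the deposited ratios, the filters, the probe rule, the methods' t-test, the block and leaving out each array.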

Additional observations from a re-analysis of the deposited data

Results flagged for a closer look

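For 2 of the 10 genes the log2 KO/WT ratio lay on 1 side of 0 on both unstimulated arrays and on the other side on both arrays of an LPS time, as 8.37% of all genes and transcripts did after 4 h and 8.68% after 24 h. The ratio of Sat1 was 0.19 and 0.11 without LPS and -0.0017 and -0.15 after 4 h, a difference of -0.22, in the RNA labelled KO that did not show the loss of Furin. The ratio of Slc7a2 was 0.28 and 0.32 without LPS and -0.45 and -0.17 after 24 h, a difference of -0.61. The test of the difference itself did not pass for either (adjusted p = 1.00 for both).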

How the results depend on the processing

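Without any 1 array, 0 of the 10 genes were called in each KO to WT comparison and each difference of response, and the LPS counts were 3 to 3 (WT 1 h, with 4.93% to 8.93% of all genes and transcripts called), 6 to 8 (WT 4 h, 29.7% to 34.2%), 6 to 7 (WT 24 h, 24.5% to 31.0%), 5 to 6 (WT 24 against 4 h, 23.9% to 29.3%), 2 to 3 (KO 1 h, 3.97% to 7.76%), 8 to 9 (KO 4 h, 30.3% to 35.6%), 6 to 6 (KO 24 h, 23.3% to 29.5%) and 6 to 8 (KO 24 against 4 h, 24.7% to 30.2%). In these fits 1 group holds a lone sample, which is assumed to vary like the other groups. Few or none of all genes and transcripts were called between KO and WT or in the differences of response either. The counts of 0 there thus describe no trait of the 10 genes. Small KO to WT values changed sign without an array. Arg1 ran from -0.39 to 0.45 at 0 h, -0.81 to 0.24 at 1 h and -0.79 to 0.14 at 4 h, and Nos2 from -0.10 to 0.25, -0.018 to 0.32 and -0.20 to 1.38. The differences of response ran from -0.85 to 0.20 at 1 h and -0.83 to 0.11 at 4 h for Arg1 and from -0.10 to 0.25 and -0.28 to 1.31 for Nos2. With the replicate number, which is also the dye orientation, as a block, the counts of called genes went from 0 to 1 at 0 h, 1 at 4 h, 2 at 24 h and 4 in the mean over time between KO and WT, and from 3 to 5 after 1 h of LPS in WT. Beside the block values given with the results, it changed no other call of the 10 genes. Loess normalization alone gave 5 called genes in place of 8 between 24 and 4 h in KO, with 28.5% of all called.

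Over all genes and transcripts, loess alone moved the split of higher and lower calls. It was 3303 higher and 8587 lower at 4 h in WT (5733 and 7107 with quantiles), 3339 and 8624 in KO (6004 and 7281), 5197 and 4602 at 24 h in WT (5001 and 6228), 4986 and 4222 in KO (4721 and 5866), and 8275 and 2101 from 4 to 24 h in WT (5587 and 5389), 8322 and 2192 in KO (5783 and 5566). At 24 h the median log2 change of the 14849 genes and transcripts tested on the processed signals was -0.12 in WT and -0.11 in KO, and that of the 13087 left by a minimum mean of 8 on the log2 intensity scale was -0.11 in both, against -0.015 and -0.014 over all 36929. The causes were not tested. With 2 arrays a time point, and replicate and dye in 1 factor, the KO to WT values have a wide error.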
